A study of Arabidopsis thaliana with 12 samples.

Results

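BXL1 (AT5G49360, probe set AT5G49360_at), BXL2 (AT1G02640, probe set AT1G02640_at) and BXL4 (AT5G64570, probe set AT5G64570_at, XYL4 in the reference) encode beta-xylosidases of the plant cell wall, and these 3 of 21428 loci on the array are described here. They were listed by name, but chosen by measured values too: earlier results of these data, with the DEX against mock difference at 4 h among them, were in view. For that reason the 4 h values are given as a description with no test, and so is every contrast that uses the 4 h arrays. The 1 h contrast compares other arrays and was tested. Its SE and p still draw on the 4 h arrays through the shared spread, and the earlier results in view may have held 1 h values. The 1 h tests are therefore not fully independent of the choice.

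Leaf 3 of 35S::gai-GR seedlings in the Col-0 ecotype, 9 days after stratification, was profiled on 12 Affymetrix ATH1 arrays. The 4 groups, with 3 arrays each, were plants on 5 µM dexamethasone for 4 h (DEX 4 h), plants on the solvent DMSO for 4 h (mock 4 h), plants on 5 µM dexamethasone for 1 h (DEX 1 h) and plants on DMSO for 1 h (mock 1 h). All 4 groups carry the same transgene, whose constitutive viral promoter drives gai-GR broadly rather than in 1 cell type. The gai protein is a DELLA growth repressor that gibberellin cannot remove, and gai-GR, in which it is joined to the hormone-binding part of the glucocorticoid receptor, enters the nucleus once dexamethasone is given. Leaves were pooled from many plants (128 in the series text, without a statement whether per sample), and the samples came from independent experiments. Plants without the transgene on dexamethasone are not analysed here, so each contrast measures the hormone and gai-GR together.

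Beta-xylosidases of the glycoside hydrolase family of BXL1 remove xylose units from the ends of xylan and xylo-oligosaccharide chains, and some of them also release arabinose from arabinan side chains of pectin. BXL1 is known as such a bifunctional enzyme: in mutants the seed coat mucilage keeps extra arabinan and is released poorly. Its transcript is also known to accumulate in darkness and to be repressed by sugar. BXL2 is a close relative of BXL1, and BXL4 is an extracellular enzyme known mainly for its activity on xylan-type substrates. Expanding leaves have mostly primary walls, in which xyloglucan and pectin prevail over xylan.

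BXL1 had a lower mean on dexamethasone at both times, far more so at 4 h, and the 1 h difference did not pass after adjustment. Its level on the RMA log2 scale was 8.42, 8.10 and 8.01 on the DEX 4 h arrays of replicates 1, 2 and 3, against 9.88, 9.63 and 9.99 on the mock 4 h arrays. The DEX arrays all lay below the mock arrays, with a gap of 1.21 between the nearest of them. The log2 fold change was -1.66 (SE 0.12, 95% interval -1.92 to -1.40, n = 3 per group), or 3.16-fold lower, the 3rd deepest of 9631 negative fold changes at that time.

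At 1 h the BXL1 level was 9.47, 9.63 and 9.53 on DEX arrays, against 9.98, 9.81 and 9.86 on mock arrays. The groups did not overlap here either, but the gap was 0.18. The log2 fold change of BXL1 was -0.34 (SE 0.12, 95% interval -0.60 to -0.08, n = 3 per group), with an unadjusted limma p of 0.0131 and an adjusted p of 0.549 over all loci. It did not pass at an adjusted p under 0.05, the threshold used throughout.

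BXL2 was likewise lower on dexamethasone at 4 h, while at 1 h its mean was lower by a difference that was not resolved. Its log2 level was 8.44, 8.46 and 7.77 on DEX 4 h arrays, against 9.73, 9.63 and 9.63 on mock 4 h arrays. DEX 4 h replicate 3 was the lowest array by a wide margin, and the SD of that group was 0.39, against 0.06 among the mock 4 h arrays. All DEX arrays lay below all mock arrays, with a gap of 1.17. The log2 fold change of BXL2 was -1.44 (SE 0.15, 95% interval -1.75 to -1.12), or 2.70-fold lower, the 5th deepest at 4 h; without DEX 4 h replicate 3 it was -1.21.

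At 1 h BXL2 had log2 levels of 9.33, 9.44 and 9.27 on DEX arrays, against 9.61, 9.52 and 9.51 on mock arrays, separated by a gap of 0.08. Its log2 fold change was -0.20 (SE 0.15, 95% interval -0.52 to 0.11, n = 3 per group), with an unadjusted limma p of 0.188 and an adjusted p of 1. The interval holds 0 as well as changes larger than that of BXL1, so a 1 h difference of BXL2 could not be resolved with 3 arrays per group.

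BXL4 moved the other way. Its log2 level was 12.93, 12.88 and 12.87 on DEX 4 h arrays, against 12.07, 11.86 and 11.92 on mock 4 h arrays. The DEX 4 h arrays were the tightest group of the gene (SD 0.03) and lay 0.80 above the highest mock array. The log2 fold change of BXL4 was 0.94 (SE 0.10, 95% interval 0.72 to 1.17, n = 3 per group), or 1.92-fold higher, the 294th of 11797 positive fold changes. These levels are near the top of the scale, whose highest value on any array was 14.1.

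At 1 h the BXL4 level was 12.14, 12.31 and 12.51 on DEX arrays, against 11.79, 11.76 and 11.94 on mock arrays. The groups did not overlap, with a gap of 0.20, and the DEX arrays were spread more widely (SD 0.19) than the mock arrays (SD 0.10). At 1 h that gave BXL4 a log2 fold change of 0.49 (SE 0.10, 95% interval 0.26 to 0.71, n = 3 per group), or 1.40-fold higher, with an unadjusted limma p of 0.00038 and an adjusted p of 0.0522. BXL4 thus stood just outside the threshold. Leaving out DEX 1 h replicate 1 gave an adjusted p of 0.0341. Leaving out mock 4 h replicate 2, an array that enters only through the shared spread, gave 0.0266; over all alternatives it ran from 0.00496 to 0.267.

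**Figure D1:**
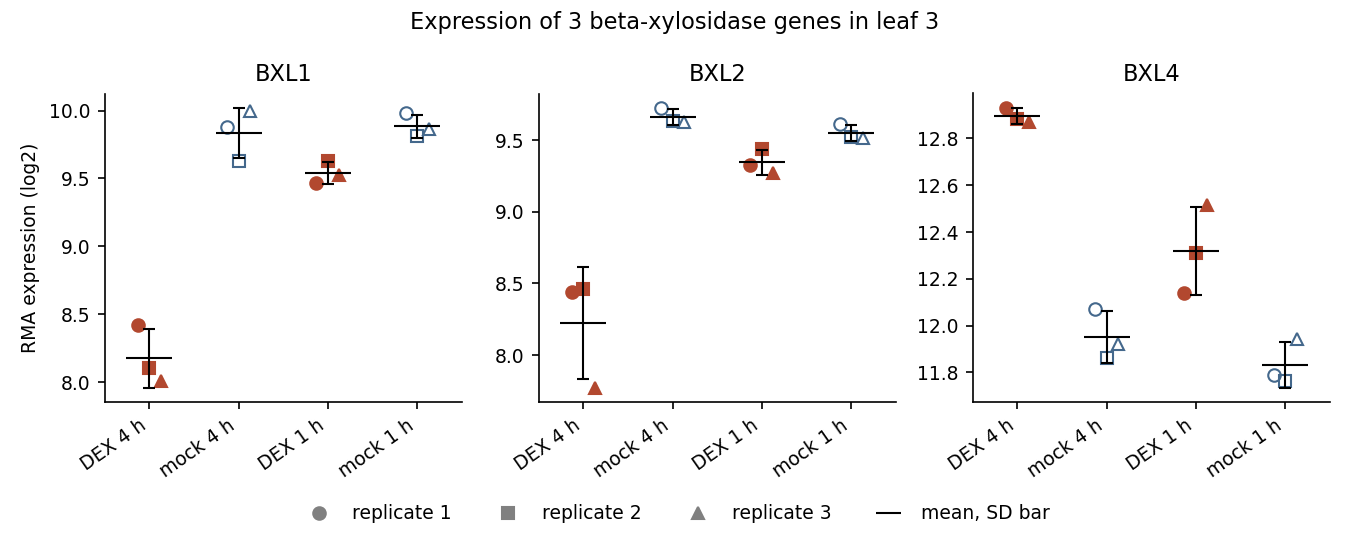
RMA log2 expression of BXL1, BXL2 and BXL4 (y axes, not starting at 0) on each of the 12 arrays by group (x axis); symbols mark replicate numbers, black lines the mean and bars the SD of 3 arrays. BXL1 and BXL2 are lowest on the DEX 4 h arrays, at 8.42 or less and 8.46 or less, while BXL4 is highest there, at 12.87 or more.

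By count, 0 of the 3 genes passed the limma test at 1 h (2 at an unadjusted p under 0.05, BXL1 and BXL4), where 0.714% of all loci passed, 0.63% higher and 0.084% lower on dexamethasone. At 4 h 7.9% of all loci passed, 5.35% higher and 2.55% lower on dexamethasone; the members were chosen with that contrast known, and nothing is read from their own count. Without mock 4 h replicate 2 the 4 h calls numbered 1008 higher and 1014 lower, against 1146 and 547 with all arrays. The groups did not overlap for 3 of the 3 genes at either time, as for 20.4% of all loci at 4 h, where nothing is read from it, and 13.1% at 1 h. At an unadjusted limma p under 0.05, 1068 of all 21428 loci passed at 1 h and 4479 at 4 h. The list counts given below at that level are to be read beside these.

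The response of all 3 genes was larger at 4 h than at 1 h. The members were chosen with the 4 h contrast known, which favours a larger 4 h change, so this is a description only. The log2 fold change at 4 h minus that at 1 h was -1.31 (SE 0.17) for BXL1, -1.23 (SE 0.21) for BXL2 and 0.46 (SE 0.15) for BXL4. The 1 h change was 20.7% of the 4 h change for BXL1, 14.1% for BXL2 and 51.7% for BXL4 on the log2 scale. These shares are ratios of estimates with the errors given above, and differences between the genes in them were not tested.

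On solvent the means of BXL1, BXL2 and BXL4 changed little between the times. Of all loci, 80.9%, 58.3% and 56.6% had a mock difference at least as large as these 3 genes in turn. BXL1 had a mean log2 level of 9.84 at mock 4 h and 9.89 at mock 1 h, a difference of -0.05 (95% interval -0.31 to 0.21), and the arrays overlapped. BXL2 averaged 9.66 at mock 4 h and 9.55 at mock 1 h, a difference of 0.11 (-0.20 to 0.43), and BXL4 averaged 11.95 at mock 4 h and 11.83 at mock 1 h, a difference of 0.12 (-0.11 to 0.34). On dexamethasone the times stood further apart: DEX 4 h minus DEX 1 h was -1.36 (SE 0.12) for BXL1, -1.12 (SE 0.15) for BXL2 and 0.58 (SE 0.10) for BXL4.

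Ordered by mean level, BXL1 ran from DEX 4 h, the lowest, through DEX 1 h to mock 4 h and mock 1 h, of which the last 2 groups overlapped. BXL2 had DEX 4 h lowest, then DEX 1 h, mock 1 h and mock 4 h, and its mock groups were separated by only 0.02 between their nearest arrays. BXL4 ran in reverse, with DEX 4 h highest, then DEX 1 h, mock 4 h and mock 1 h, and its mock groups overlapped.

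Across the 12 arrays BXL1 and BXL2 followed each other, with a Pearson correlation of log2 levels of 0.967, while BXL1 and BXL4 gave -0.914 and BXL2 and BXL4 -0.887. The 12 points share the 4 group means, and the DEX 4 h arrays stand apart, so these coefficients mostly restate the group differences. After each group's mean was removed, the correlation was 0.533 for BXL1 with BXL2, 0.275 for BXL1 with BXL4 and 0.056 for BXL2 with BXL4, as a description of 12 deviations. In the DEX 4 h group, replicate 1 was above the group mean for both BXL1 and BXL2, by 0.24 and 0.22. Replicate 3 was below it for both, with deviations of -0.17 and -0.45. Replicate 2 was below it for BXL1 (-0.08) and above it for BXL2 (0.24).

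The loci with the profiles most like each gene were found by the Pearson correlation of log2 levels over the 12 arrays, among 21206 other loci with values of their own. BXL1 was most like AT5G45670 (r = 0.989), then PAR1 (AT2G42870, 0.981), a helix-loop-helix protein that restrains elongation, MAKR3 (AT2G37380, 0.970), of a family of membrane-associated kinase regulators, and CDT1A (AT2G31270, 0.970), a licensing factor of DNA replication. The log2 fold changes of these at 4 h were -1.24, -1.33, -0.67 and -0.83, and at 1 h -0.26, -0.01, -0.19 and -0.10. A profile picked for its likeness to BXL1 has low DEX 4 h arrays by that choice, so the sign at 4 h is no finding. Without mock 4 h replicate 2, 3 of these 4 stayed among the 4 most alike, with MAKR3 at rank 8 and CDT1A at rank 2.

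For BXL2 the locus most alike over the 12 arrays was BXL1 itself (r = 0.967). Next came CYP78A5 (AT1G13710, 0.965), also called KLU, a cytochrome P450 that promotes organ growth, YUC6 (AT5G25620, 0.964), an enzyme of auxin synthesis, and XTH28 (AT1G14720, 0.964), of the xyloglucan endotransglucosylase/hydrolase family. CYP78A5, YUC6 and XTH28 had log2 fold changes of -2.08, -0.77 and -0.45 at 4 h and of -0.30, -0.03 and -0.03 at 1 h. This order changed without mock 4 h replicate 2, the only array left out for it. BXL1 was then at rank 4 and CYP78A5, YUC6 and XTH28 at ranks 6, 8 and 10.

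Over the 12 arrays BXL4 was most like AT5G65040 (r = 0.985), BZS1 (AT4G39070, 0.976), a B-box zinc finger protein, LBD40 (AT1G67100, 0.975), a LOB-domain protein, and AT5G40540 (0.973). Their log2 fold changes at 4 h were 3.33, 2.67, 2.65 and 1.61, and at 1 h 1.62, 1.75, 1.30 and 0.88, with high DEX arrays again fixed by the choice. Without mock 4 h replicate 2, AT5G65040 stayed at rank 1, while BZS1, LBD40 and AT5G40540 were at ranks 7, 5 and 6. A correlation above 0.9 was found for 132 loci with BXL1, 69 with BXL2 and 182 with BXL4, and one below -0.9 for 147 loci with BXL1, 116 with BXL2 and 35 with BXL4.

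**Figure D2:**
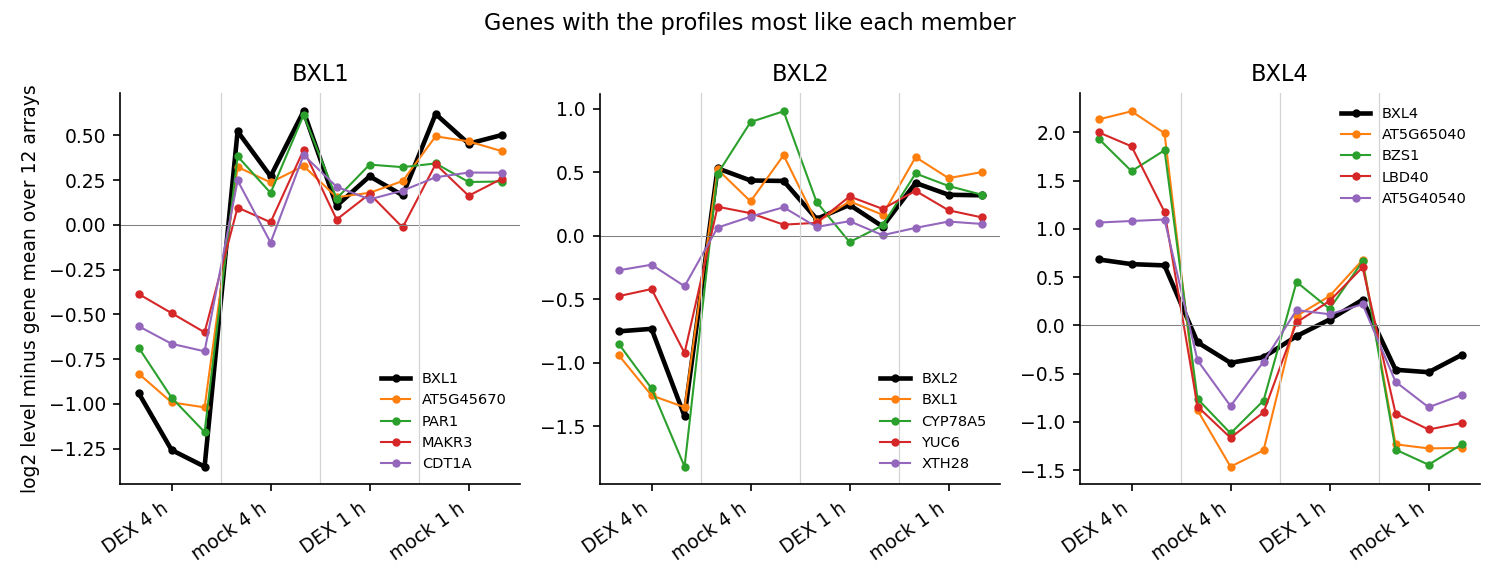
Log2 level minus the gene's mean over 12 arrays (y axes, 1 scale per panel) for BXL1, BXL2 and BXL4 in black and the 4 loci most correlated with each in colour; x positions are the 12 arrays by group, and lines only join the points of a gene. The BXL1 and BXL2 panels share the low DEX 4 h arrays, and the loci of the BXL4 panel are high on DEX 4 h and intermediate on DEX 1 h arrays.

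Of 7 loci listed as the BXL family, 4 are not among the members, and 3 of those 4 have no symbol in the reference. By limma 0 of these 4 passed at 1 h (0 at an unadjusted p under 0.05). At 4 h 3 did not pass, 1 fell and none rose (2 at an unadjusted p under 0.05). The median log2 fold change was -0.24 at 4 h, against 0.02 over all loci. AT5G10560 was the 1 that fell: its log2 level averaged 9.84 ± 0.07 on DEX 4 h arrays and 10.18 ± 0.05 on mock 4 h arrays (SD, n = 3 each), a log2 fold change of -0.34 (SE 0.09, limma adjusted p = 0.0335). That call is lost when a single array is left out, with adjusted p of 0.116, 0.0650 and 0.0625 without DEX 4 h replicate 1, 2 or 3, 0.0672 and 0.0837 without mock 4 h replicate 1 or 3, 0.0505 without DEX 1 h replicate 1 and 0.0523 without mock 1 h replicate 3. For AT5G10560 it is also lost with array weights (0.0557) and with only the 4 h arrays fitted (0.134).

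AT1G78060 had log2 levels of 9.67 ± 0.07 on DEX 4 h arrays and 9.97 ± 0.06 on mock 4 h arrays (SD, n = 3 each), with arrays that did not overlap. Its log2 fold change of -0.30 (SE 0.09) missed the threshold, with a limma adjusted p of 0.0677; with quantile normalization repeated it was -0.39 (adjusted p = 0.0303) and with arrays centred on their medians -0.41 (0.0310). BXL3 (AT5G09730), a further beta-xylosidase, averaged 5.58 ± 0.18 on DEX 4 h arrays and 5.75 ± 0.33 on mock 4 h arrays (SD, n = 3 each). AT3G19620 averaged 5.19 ± 0.20 on DEX 4 h arrays and 5.18 ± 0.13 on mock 4 h arrays (SD, n = 3 each), below the lower quartile of every array. AT3G19620 and BXL3 were thus measured at the low end of the scale. AT3G19620 had a log2 fold change of 0.01, which was -0.10 with arrays centred and -0.02 without mock 4 h replicate 2.

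**Figure D3:**
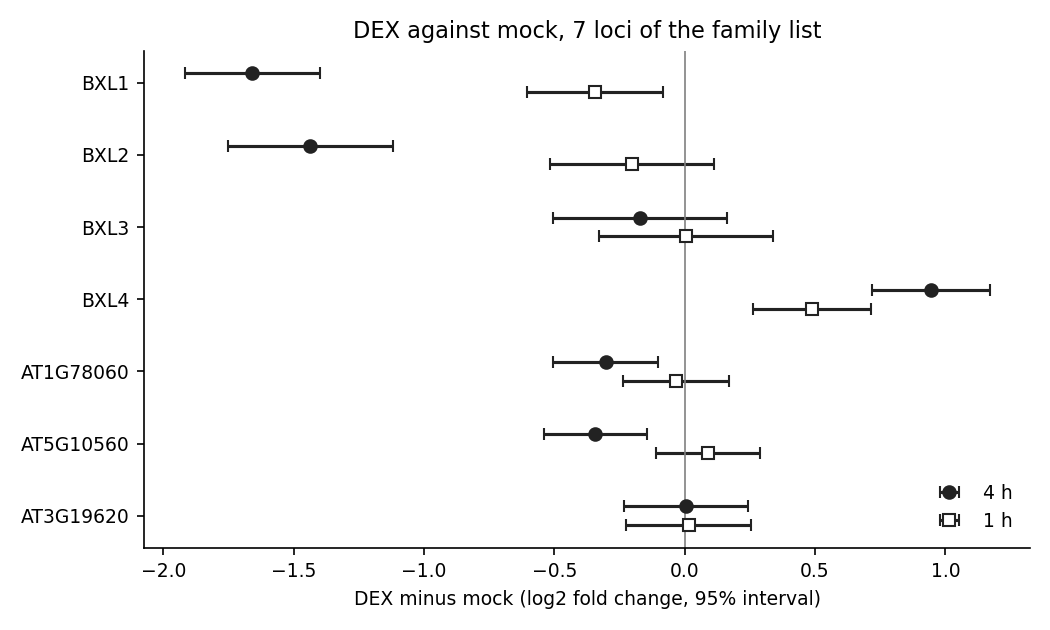
Log2 fold change of DEX against mock (x axis) with its 95% interval from the limma fit for 7 loci (rows), at 4 h (filled circles) and at 1 h (open squares). BXL1 at -1.66 and BXL2 at -1.44 lie far left and BXL4 at 0.94 right of 0 at 4 h, and the other 4 loci lie between -0.34 and 0.01.

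Enzymes that act on neighbouring wall polymers were read as lists. Of 6 further enzymes that trim xylan, xyloglucan or arabinan (xylanases, the alpha-xylosidase XYL1 and 2 arabinofuranosidases), 0 passed by limma at 4 h (1 at an unadjusted p under 0.05) and 0 at 1 h (0 at that level), with medians of -0.05 and -0.03. XYL1 (AT1G68560), which removes xylose from xyloglucan, had the smallest p at 4 h, with a log2 fold change of -0.32 (SE 0.14, adjusted p = 0.207); with arrays centred on their medians it was called (-0.43, adjusted p = 0.0341).

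Among 10 beta-galactosidases, which release galactose from wall polymers, 1 rose and 2 fell at 4 h and 7 did not pass (median -0.04). At an unadjusted limma p under 0.05, 6 of the 10 passed at 4 h. At 1 h 0 passed (1 at that unadjusted level). BGAL2 (AT3G52840) fell: its log2 level averaged 7.80 ± 0.10 on DEX 4 h arrays and 8.72 ± 0.05 on mock 4 h arrays (SD, n = 3 each), a log2 fold change of -0.92 (SE 0.13, limma adjusted p = 0.000283). BGAL1 (AT3G13750) rose by 0.47 (SE 0.10, limma adjusted p = 0.00697). BGAL8 (AT2G28470) fell by 0.47 on the log2 scale (SE 0.12, limma adjusted p = 0.0288), a call that is lost without DEX 4 h replicate 1 (0.124) or 2 (0.0904) and without mock 4 h replicate 1 (0.0570) or 3 (0.0898), and with only the 4 h arrays fitted (0.107). BGAL12 (AT4G26140) was called lower without mock 4 h replicate 2 (-0.80, 0.0118) and BGAL3 (AT4G36360) higher without mock 4 h replicate 1 (0.36, 0.0458). With all 12 arrays BGAL12 was called lower with arrays centred on their medians (-0.70, limma adjusted p = 0.0166) and quantile normalization repeated (-0.67, 0.0219). BGAL3 was called higher with a variance trend and robust fit (0.31, 0.0304).

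Genes on the supply and synthesis side of xylan did not pass with all 12 arrays. By limma 0 of the 5 measured genes, of 10 listed, that make UDP-xylose or UDP-arabinose passed at 4 h (1 at an unadjusted p under 0.05; median -0.07) and 0 at 1 h (0 at that level). UXS5 (AT3G46440), a UDP-xylose synthase, had a log2 fold change of 0.26 at 4 h (SE 0.09, adjusted p = 0.0795). Of 17 measured genes of xylan synthesis and decoration, 0 passed at 4 h (1 at an unadjusted p under 0.05; median -0.06) and 0 at 1 h (0 at that level), and their log2 fold changes at 4 h ran from -0.28 to 0.18. GUX1 (AT3G18660), which adds glucuronic acid to xylan, had the smallest p, with -0.23 (SE 0.10, adjusted p = 0.213). Without mock 4 h replicate 2, 1 gene of each list was called lower at 4 h: UXS1 (AT3G53520), a UDP-xylose synthase, at -0.38 (adjusted p = 0.0351) and IRX10 (AT1G27440), of xylan backbone synthesis, at -0.32 (0.0463).

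Genes known, like BXL1, to be induced by sugar starvation or darkness moved both ways. Of 14, 2 rose, 3 fell and 9 did not pass at 4 h (median -0.10, 7 at an unadjusted limma p under 0.05). That balance depends on the processing: 1 rose and 5 fell with arrays centred on their medians, and 1 rose and 4 fell with quantile normalization repeated. TPS8 (AT1G70290), of the trehalose phosphate synthase family, fell by 0.97 on the log2 scale (SE 0.12, limma adjusted p = 8.05e-05), and BZIP1 (AT5G49450), a transcription factor of the starvation response, fell by 0.58 (SE 0.12, limma adjusted p = 0.0061). BZIP1 has the same values as AT5G49448 on all arrays, so the 2 loci cannot be told apart. ASN1 (AT3G47340), an asparagine synthetase, fell by 0.77 (SE 0.18, limma adjusted p = 0.0143, and 0.0714 without DEX 4 h replicate 1).

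KMD4 (AT3G59940), a kelch-repeat F-box protein, rose by 1.23 (SE 0.12, limma adjusted p = 1.02e-05) at 4 h. It was the 1 gene of that list to pass at 1 h, where it rose by 0.93 (SE 0.12, limma adjusted p = 0.000852) and the median was -0.18. At an unadjusted limma p under 0.05, 3 of the 14 passed at 1 h. TPS10 (AT1G60140) rose by 0.51 at 4 h (SE 0.13, limma adjusted p = 0.0241), a call that is lost without DEX 4 h replicate 1 (0.0958) or 2 (0.112) and without mock 4 h replicate 1 (0.0741) or 3 (0.0662), with arrays centred on their medians (0.108) with quantile normalization repeated (0.131) and with only the 4 h arrays fitted (0.0751). SEN1 (AT4G35770), a dark-induced gene, was called lower at 4 h without mock 4 h replicate 3 (-1.50, limma adjusted p = 0.00555), with arrays centred (-1.21, 0.0462) and with a replicate block (-1.10, 0.0254). TPS9 (AT1G23870) was called lower at 4 h with arrays centred (limma adjusted p = 0.0287) and with quantile normalization repeated (0.0272). With array weights BZIP1 (limma adjusted p = 0.039) and EXL2 (AT5G64260, 0.0449) were called lower at 1 h. ASN1, TPS10, SEN1, TPS9 and EXL2 were named after their values were seen.

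BXL1 is best known from the seed coat, so regulators and enzymes of mucilage were read too. At 4 h 1 of these 9 genes rose, 8 did not pass and none fell (median 0.09, 3 at an unadjusted limma p under 0.05). By limma 0 passed at 1 h (0 at an unadjusted p under 0.05). TTG2 (AT2G37260), a WRKY factor of trichomes and seed coat, was the 1 that rose, by 1.10 (SE 0.14, limma adjusted p = 0.000109). LUH (AT2G32700), a corepressor known to act upstream of BXL1 in the seed coat, had log2 fold changes of -0.01 at 4 h and 0.03 at 1 h, and its name was added after its values were seen.

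**Figure D4:**
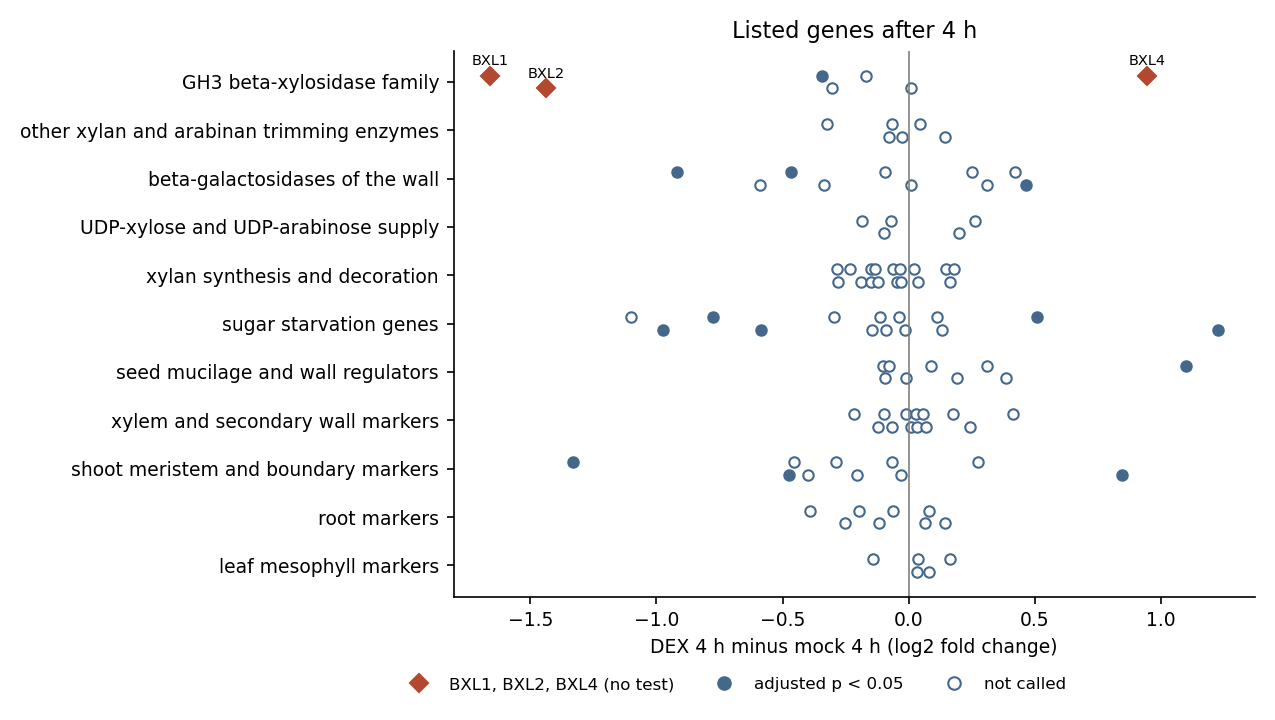
Log2 fold change of DEX 4 h against mock 4 h (x axis) for 104 measured genes in 11 lists (rows); filled blue circles passed at a limma adjusted p under 0.05, open circles did not, and diamonds mark BXL1, BXL2 and BXL4, which were not tested. The diamonds lie at -1.66, -1.44 and 0.94, and the points of the xylan synthesis row lie between -0.28 and 0.18.

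The arrays measure whole leaves, so fewer cells of a type and less RNA per cell cannot be told apart in any of these values. Leaf markers were high: 5 of 8 mesophyll genes were measured, with mean log2 levels of 13.2 to 13.4 on all arrays, and by limma 0 of 5 passed at 4 h or at 1 h (0 at an unadjusted p under 0.05 at either time). LHCB3 (AT5G54270), of the light-harvesting complex, had a log2 fold change of -0.14 at 4 h (adjusted p = 0.323). Of 13 xylem and secondary wall markers, 0 passed at 4 h (1 at an unadjusted p under 0.05) and 0 at 1 h (0 at that level), and 5 lay below the lower quartile of every array. Their summed linear level was 757 to 815 on DEX 4 h arrays and 740 to 804 on mock 4 h arrays. MYB46 (AT5G12870), a switch of secondary wall formation, had 0.24 at 4 h (adjusted p = 0.175), and root markers likewise had 0 of 8 passing at each time (1 at an unadjusted p under 0.05 at each), with WER (AT5G14750), a factor of root epidermis patterning, at -0.39 (SE 0.14, adjusted p = 0.119) at 4 h and -0.58 (SE 0.14, adjusted p = 0.108) at 1 h. WER was called lower without mock 4 h replicate 2 at both times (adjusted p = 0.0384 at 4 h and 0.040 at 1 h), without DEX 1 h replicate 1 at 1 h (0.0477), with arrays centred at both times (0.0241 at 4 h and 0.0491 at 1 h), and at 1 h with quantile normalization repeated (0.037) and array weights (0.0311).

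Shoot meristem and boundary markers went both ways. Of 10, 1 rose, 2 fell and 7 did not pass at 4 h (median -0.25). At 1 h 1 rose, 1 fell and 8 did not pass (median -0.07). At an unadjusted limma p under 0.05, 6 of the 10 passed at 4 h and 2 at 1 h. KNAT1 (AT4G08150), a homeobox gene of the meristem, fell by 1.33 at 4 h (SE 0.14, limma adjusted p = 1.91e-05), and CUC3 (AT1G76420), a boundary gene, fell by 0.47 (SE 0.10, limma adjusted p = 0.010, and 0.0577 with only the 4 h arrays fitted). CLV1 (AT1G75820), a receptor kinase, rose by 0.84 at 4 h (SE 0.10, limma adjusted p = 8.22e-05). The summed linear level of the list was 1666 to 1711 on DEX 4 h arrays and 1272 to 1479 on mock 4 h arrays. Without CLV1 the sum of the other 9 was 521 to 588 on DEX 4 h arrays and 707 to 752 on mock 4 h arrays. The sum was thus higher on DEX 4 h arrays only with CLV1 in it. Leaving out single arrays also gave calls that the main analysis does not: KNAT6 (AT1G23380) had -0.61 without mock 4 h replicate 2 (limma adjusted p = 0.0132), STM (AT1G62360) -0.58 without DEX 4 h replicate 1 (0.00915) and CUC2 (AT5G53950) -0.46 without mock 4 h replicate 1 (0.0292). With all 12 arrays KNAT6 was called lower at 4 h with array weights (limma adjusted p = 0.028), arrays centred on their medians (0.0127) and a replicate block (0.0496). STM was called lower with arrays centred (0.0347) and with the block (0.0431). With centring 1 gene of the list rose and 4 fell at 4 h. On every array 2 of the 10 lay below the lower quartile, and the part of these cells in the levels of BXL1, BXL2 and BXL4 was not tested.

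At 1 h CLV1 rose by 0.51 (limma adjusted p = 0.033) and CUC3 fell by 0.54 (limma adjusted p = 0.0269). CLV1 lost its 1 h call without any 1 of the 6 arrays of that time, with adjusted p from 0.0676 (DEX 1 h replicate 1) to 0.175 (mock 1 h replicate 1), and at 0.0538 and 0.0545 without DEX 4 h replicate 1 or 2. CUC3 lost its 1 h call without DEX 1 h replicate 2 (0.132) or 3 (0.143) and without mock 1 h replicate 1 (0.0832), 2 (0.150) or 3 (0.137).

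GAI (AT1G14920), the gene behind the transgene, had log2 levels of 12.91 to 12.97 on DEX 4 h arrays and 12.90 to 12.97 on mock 4 h arrays; its probe set can read transgene and native gene, and dexamethasone acts on the protein, so this checks no label. Mock 4 h replicate 2 had the lowest array median, 7.48, against 7.65 to 7.78 on the other 11 arrays. Without it the 4 h log2 fold changes were -1.76 for BXL1, -1.45 for BXL2 and 0.90 for BXL4.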

How the data were processed

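The labels assign 12 ATH1 arrays to 4 groups of 3. The authors deposited 1 log2 value for each probe set and array, made with RMA according to the submitters' processing notes. This method corrects background, makes the arrays' distributions alike and combines probes, and it can compress differences at both ends of the scale. Its version, the probe set definition and genome build are not given in the sources used here, and no coordinates are stated. Precision is limited by the 3 arrays per group.

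The 64 control sets were left out and 21428 loci, 1 probe set each, were fitted with limma 3.58.1 (R 4.3.3): 1 mean per group, all 12 arrays, two-sided tests with 8 residual degrees of freedom and 5.85 prior ones, Benjamini-Hochberg over all loci. Levels were not compared between genes, since probes differ in brightness. Symbols come from RefSeq's TAIR10.1 table, which held all 116 listed loci; 104 were measured. BXL1, BXL2 and BXL4 share their values with no other locus.

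The members, the 11 lists and the tests were chosen with earlier results of these data known. Named genes are the BXL loci, for every list up to 3 passing members by p at 4 h and 1 more at 1 h (where none passed, the lowest p at 4 h), and the 4 loci most correlated with each member.

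Alternatives were a replicate block, the arrays of 1 time, a mean log2 of at least 5, repeated quantile normalization, median centring, a variance trend with robust fit, array weights, an adjusted p under 0.01 and leaving out each array. ASN1, TPS10, LUH and listed genes called only under an alternative were named after their values were seen, as was the sum without CLV1. The fit was tested on simulated data for the 1 h comparison.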

Additional observations from a re-analysis of the deposited data

Results flagged for a closer look

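Interaction terms were read for 22 genes named from the lists that are not members, most of them for a small p at 4 h. Of these, ASN1 and TPS10 were named after their values were seen, the others by rule. By limma's interaction term, 3 of the 22 had a response to dexamethasone at 4 h that differed from that at 1 h. The loci picked for their likeness to a member, the genes called only under an alternative, LUH and GAI were not among these 22. For them the interaction is not given. Over all loci 274 of 21428 did, but the named genes were picked in part for their 4 h change, so the 2 shares cannot be compared. For TPS8 the 4 h log2 fold change minus the 1 h one was -0.77 (-0.97 at 4 h, -0.20 at 1 h, adjusted p = 0.035), for TTG2 1.19 (1.10 at 4 h, -0.09 at 1 h, adjusted p = 0.00686) and for KNAT1 -1.34 (-1.33 at 4 h, 0.01 at 1 h, adjusted p = 0.00297).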

How the results depend on the processing

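The log2 fold changes kept their sign in every alternative run. At 4 h they ran from -1.78 to -1.57 for BXL1, -1.55 to -1.21 for BXL2 and 0.84 to 1.01 for BXL4; when single arrays were left out the limits were -1.78 and -1.57, -1.55 and -1.21, and 0.90 and 1.01. At 1 h, leaving out single arrays gave -0.39 to -0.30 for BXL1, -0.25 to -0.16 for BXL2 and 0.39 to 0.58 for BXL4. BXL4 at 1 h passed in 6 of 20 alternatives: with array weights (0.48, adjusted p = 0.00928), arrays centred on the median (0.48, 0.0472), repeated quantile normalization (0.50, 0.0238), the variance trend (0.49, 0.00496) and without DEX 1 h replicate 1 or mock 4 h replicate 2; the cause was not tested. BXL1 and BXL2 passed at 1 h in 0 of 20 alternatives, with the smallest limma adjusted p at 0.0887 and 0.451; at an unadjusted p under 0.05 BXL1 passed in the main analysis.

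The count of loci called at 1 h was 153, 378 with array weights, 251 with only the 1 h arrays, 96 at an adjusted p under 0.01, and 90 to 263 when single arrays were left out (90 and 97 with mock 1 h replicate 2 or 3 left out, 263 with mock 4 h replicate 2 left out). At 4 h it was 1693, 994 with only the 4 h arrays, 1008 at an adjusted p under 0.01, and 1244 to 2022 when single arrays were left out. Of 101 other listed genes 13 were called at 4 h (20 with arrays centred, 10 to 18 without single arrays) and 3 at 1 h (6 with array weights, 1 to 4 without single arrays; 1 without DEX 1 h replicate 2 or 3 or any mock 1 h array). Of the 4 h calls 67.7% were higher on dexamethasone, 49.9% without mock 4 h replicate 2, 49.6% with repeated quantile normalization and 40.0% with centring, under which the median over all loci was -0.09 in place of 0.02.

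Whether same-numbered arrays came from the same experiment is not stated. Same-numbered DEX and mock arrays correlated in their deviations from -0.01 to 0.19, which shows no strong pairing but cannot exclude a weak one. With the replicate block the 1 h values were -0.34 for BXL1 (adjusted p = 0.571), -0.20 for BXL2 (1) and 0.49 for BXL4 (0.0764), with 153 loci called at 1 h and 1697 at 4 h; of the named calls, that of CUC3 at 1 h was lost (0.0514).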
